A study of Mus musculus with 8 samples.

Results

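Bone morphogenetic protein (BMP) signalling was described in sorted cochlear hair cells through 10 genes: the ligands Bmp2 and Bmp4, the receptors Bmpr1a, Bmpr1b and Bmpr2, the inhibitory Smad gene Smad7, and the target genes Id1, Id2, Id3 and Id4. They were listed by name, with no threshold on their values, and all 10 were found among the 25343 genes of the deposited table. RNA came from 4 libraries of Ndp knockout mice (Ndp KO) and 4 libraries of wild-type mice (WT). Ndp encodes norrin, a secreted ligand of the Wnt receptor Frizzled-4, and loss of the human gene causes Norrie disease, with blindness and progressive hearing loss. Both genotypes had a mixed C57BL/6 and 129 background, were postnatal day 4 to 6, and carried the hair cell reporter Atoh1-GFP, by which the cells were sorted. Each library was a pool of 12 to 20 sensory epithelia and was made from 1.6 to 2.4 pg of total RNA. The sex of the mice, the number of mice in a pool and any relation between litters were not given in the sources used here. The sources used here do not say which part of Ndp the knockout allele removes.

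BMP ligands bind pairs of type I and type II serine/threonine kinase receptors, and the active type I receptor phosphorylates Smad1, Smad5 and Smad9, which enter the nucleus with Smad4. The Id genes are among the best known direct targets of these Smads, and their proteins hold back basic helix-loop-helix (bHLH) factors such as Atoh1 by binding their E protein partners. In the cochlea, BMP signalling is known to help pattern the sensory epithelium, and Atoh1 is required for hair cells to form.

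The libraries held 35077950 to 48329827 reads, recovered as whole numbers from the deposited normalized counts. The sources used here do not tell counted reads from rounded estimates, and these whole numbers are called reads below. Ndp, the targeted gene, was at 10.5, 22.6, 66.8 and 45.1 normalized counts in Ndp KO replicates 1 to 4, against 174, 90.4, 114 and 206 in WT replicates 1 to 4. The genotypes did not overlap for Ndp. Its log2 difference was -2.20 ± 0.56 (SE, limma adjusted p = 0.895). Hair cell markers were detected in every library, and their summed level over 12 of 12 genes was 425389 to 503181 normalized counts in Ndp KO and 408641 to 448955 in WT. Supporting cell markers were detected too, with sums over 12 of 12 genes of 269139 to 351322 in Ndp KO and 208112 to 423610 in WT. The most abundant hair cell markers were Calb1, at 191687 ± 13595 in Ndp KO and 183686 ± 17716 in WT, and Myo6. Among the supporting cell markers they were Tectb, at 179660.4 ± 27911 in Ndp KO and 214099 ± 73356 in WT, and S100a1. In bulk RNA, fewer cells of a type and less RNA per cell cannot be told apart. The labels do not say whether mice of different pools were independent, so p-values measure only how these libraries vary, and that variation may be technical.

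Sequence near the start of 3 Id genes is shown because the Id genes are the best known BMP targets and 4 places there match short Smad motifs. Of the 10 genes, 7 had an entry that was used in the RefSeq promoter table (build GRCm38.p6), with 9 windows of 250 bases before a RefSeq transcript start. No entry was found for Id1 or Bmp2. RefSeq starts differ from the gene spans of the deposited table: only the windows of Bmp4 and Id4 lie before the gene as the table places it, and the other 7, those of Id2 and Id3 included, lie inside the gene's span. The motifs searched on both strands were GGCGCC, a GC-rich Smad element that reads the same on both strands, and CAGAC, the core of the Smad binding element; the letters of neither contain the other. GGCGCC occurred in 9.59% and CAGAC in 42.2% of all 32851 windows of that length, so a CAGAC match is common and a GGCGCC match is less so. GGCGCC was found in 1 window each of Id2, Id4, Bmpr1a and Bmpr2. CAGAC was found at 2 places in the Id3 window and at 1 place in each of 2 of the 3 Bmpr1b windows. The Bmp4 window held neither. The whole window of Id4, which lies before the gene, and 30 bases around each match of Id2 and Id3, which lie inside the genes, follow, 5′ to 3′ on the gene's strand, with the motif in capitals.
Id4, chr13:48260866-48261115, plus strand: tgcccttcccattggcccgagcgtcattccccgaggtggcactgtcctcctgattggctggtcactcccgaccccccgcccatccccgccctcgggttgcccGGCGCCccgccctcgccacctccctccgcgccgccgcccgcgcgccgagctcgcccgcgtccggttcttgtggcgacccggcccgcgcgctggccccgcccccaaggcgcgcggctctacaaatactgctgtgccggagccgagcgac
Id2, chr12:25096306-25096335, minus strand: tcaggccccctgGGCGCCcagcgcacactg
Id3, chr4:136143643-136143672, plus strand: tgtcctcggcgtCAGACcagcctaaggaag
Id3, chr4:136143742-136143771, plus strand: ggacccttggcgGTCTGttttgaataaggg
In the second Id3 site the capitals are CAGAC read on the other strand. A match is a description of letters, and no binding was measured.

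The Id genes stood far above the ligands and receptors in the sorted cells. Per kilobase of exon, averaged over all 8 libraries, Id3 was at 3895 ± 1220.3 normalized counts (SD, n = 8), Id1 at 3831 ± 1245, Id2 at 3536 ± 790.1 and Id4 at 3061 ± 360.4. On that scale these 4 genes lay above 95.9% to 97.1% of the genes tested, and their ranges overlapped with each other, so no order among the Id genes exceeded the spread over libraries. Bmpr1a followed at 651 ± 186 per kilobase and Bmpr1b at 165 ± 24.8. Both of these steps, Id4 above Bmpr1a and Bmpr1a above Bmpr1b, were present in 8 of 8 libraries with no overlap of their ranges. Smad7 was at 85.6 ± 35.5, Bmp2 at 54.8 ± 24.4, Bmpr2 at 29.2 ± 8.01 and Bmp4 at 11.3 ± 7.95 per kilobase. Neighbours in this lower part of the order had overlapping ranges, and Bmp4 lay above only 13.8% of the genes tested.

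**Figure D1:**
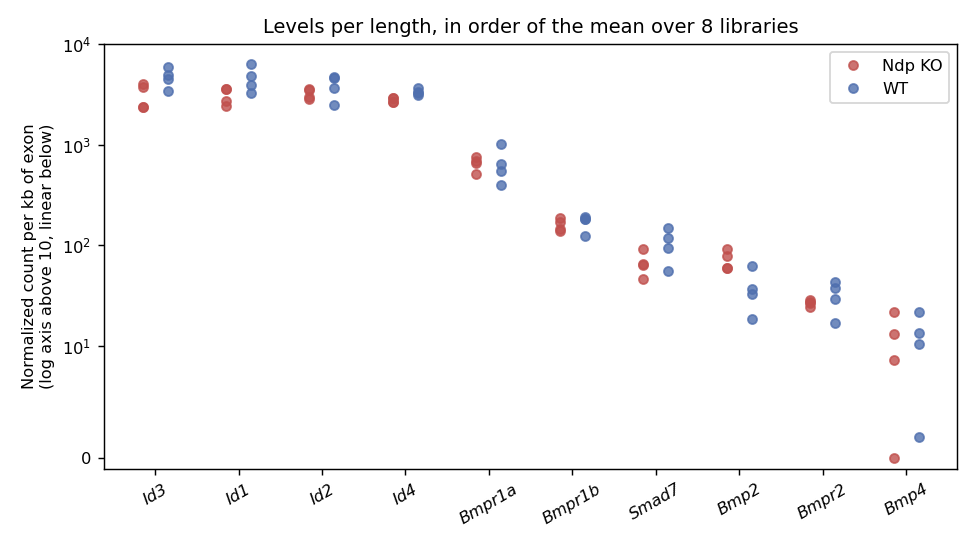
Normalized counts per kilobase of exon for the 10 genes, with 1 point per library, Ndp KO left of WT, on an axis that is logarithmic above 10 and linear below. Genes are ordered by their mean over 8 libraries, and the 4 Id genes form a group with means of 3061 to 3895, above Bmpr1a at 651 and Bmp4 at 11.3.

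Between genotypes, the Id genes and Smad7 had lower means in Ndp KO, Bmp2 had a higher one, and none of the 10 genes passed the test. The test was limma on log2(normalized count + 1), with Benjamini-Hochberg adjustment over 18203 genes that reached 10 normalized counts in at least 4 libraries; all 10 genes passed that filter. At an adjusted p under 0.05 limma called 0 of the 10 genes, and edgeR and DESeq2 on the recovered reads also called 0; over all genes tested limma called 0.00549%, edgeR 0% and DESeq2 0.136%. At an unadjusted p under 0.05, each of the 3 tools listed the same 4 of the 10 genes: Bmp2, higher in Ndp KO, and Id1, Id3 and Id4, lower. The share of all genes at that unadjusted level was 5.57% by limma, 3.1% higher and 2.47% lower, and it was 4.55% by edgeR and 6.09% by DESeq2. The log2 difference was below 0 for 8 of the 10 genes, against 47.5% of all genes tested, and its median was -0.25, against 0.02 over all genes tested. The 10 genes are not separate observations, because Id1, Id2 and Id3 varied together over the libraries. The 3 tools used the same libraries, and the genes were chosen with earlier results of these data known. No conclusion is drawn from these counts. Id4 was the only gene of the 10 whose genotypes did not overlap, while 3.04% of all genes tested had no overlap. The lowest adjusted p that any of the 10 genes had in the authors' deposited table was 0.383, for Id4.

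**Figure D2:**
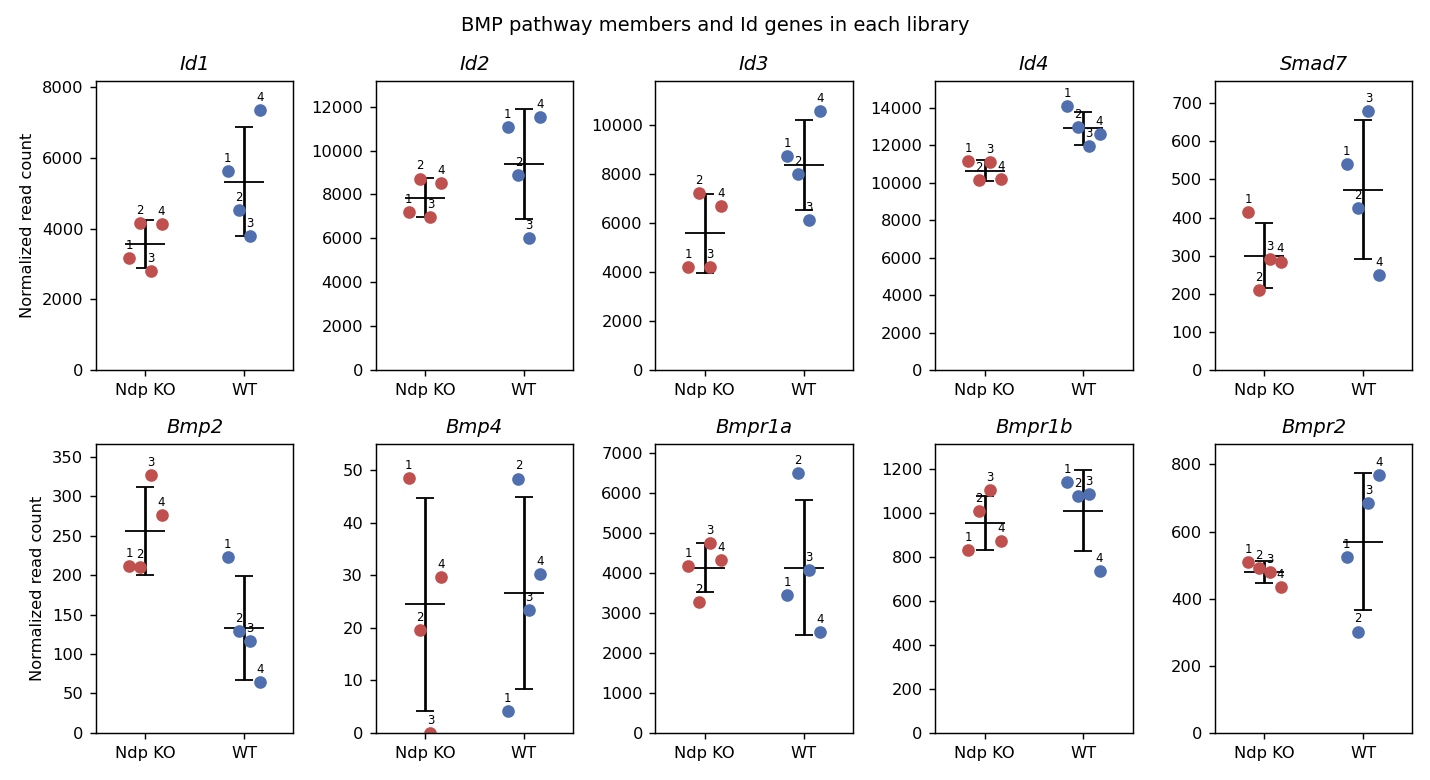
Normalized counts of each of the 10 genes in every library, Ndp KO left of WT in each panel, with a bar at the mean and an error bar of 1 SD (n = 4 each). The genotypes separate only for Id4, with Ndp KO at 10174 to 11177 and WT at 11970.2 to 14087.

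**Figure D3:**
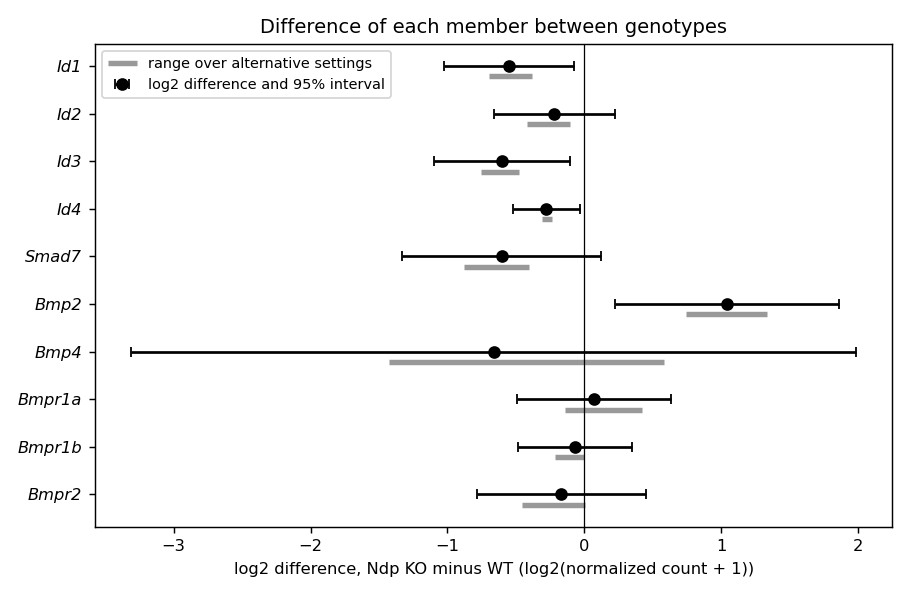
Log2 difference, Ndp KO minus WT, of each gene with its 95% interval from limma (black) and the range over the alternative settings (grey). The intervals of Bmp2, Id1, Id3 and Id4 lie on 1 side of 0, and the interval of Bmp4 is the widest, from -3.31 to 1.99.

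Of the ligands, Bmp2 had a higher mean in Ndp KO, and Bmp4 was low and ranged from 0 to 48.5 normalized counts over the libraries. Bmp2, on chr2:133552159-133562885, encodes a BMP ligand that drives bone and cartilage formation. Its normalized counts were 211.9, 210.9, 326.6 and 276.1 in Ndp KO replicates 1 to 4, against 222.8, 129.6, 116.2 and 65.1 in WT replicates 1 to 4. All 4 Ndp KO libraries lay above the WT mean, but WT replicate 1 lay above 2 of them, so the genotypes overlapped. The means were 256.4 ± 55.9 in Ndp KO and 133.4 ± 65.7 in WT (SD, n = 4 each), a ratio of 1.92. On the log2 scale Bmp2 differed by 1.04 ± 0.37 (SE; 95% interval 0.23 to 1.86), and the limma p was 0.0172 before and 0.895 after adjustment. Only replicate 2 of Ndp KO and replicate 2 of WT carry a common date in their titles, and between these same-date libraries Bmp2 differed by 0.70 on the log2 scale.

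Bmp4, on chromosome 14, encodes a ligand closely related to Bmp2 and marks the outer side of the developing cochlear epithelium. It was at 48.5, 19.6, 0 and 29.7 normalized counts in Ndp KO, against 4.22, 48.4, 23.4 and 30.2 in WT. Each genotype covered nearly the same range. A count of 0 in Ndp KO replicate 3 allows up to 3 reads, and 3 reads were worth 2.34 to 3.49 normalized counts across the libraries. The log2 difference of -0.66 ± 1.20 (limma adjusted p = 0.988) was 0.58 without that library, so no direction can be given for Bmp4. The limit of 3 reads covers counting error only, because PCR copies were not marked by molecular identifiers.

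The 3 receptors overlapped between genotypes, with intervals on both sides of 0. Bmpr1a, on chromosome 14, encodes a type I receptor also known as ALK3. It was at 4182, 3270.01, 4737 and 4330.1 in Ndp KO and at 3456, 6490.3, 4061 and 2529 in WT. The WT libraries surrounded the Ndp KO libraries on both sides. Its means were 4129.8 ± 619 in Ndp KO and 4134 ± 1693 in WT (SD, n = 4 each), and the interval of the log2 difference ran from -0.49 to 0.63. Bmpr1b, on chromosome 3, encodes the type I receptor ALK6, known for its part in cartilage and digit formation. Its means were 954 ± 124 in Ndp KO, with a range of 832 to 1102, and 1009 ± 184 in WT, with a range of 737 to 1140.3. The interval of the log2 difference of Bmpr1b ran from -0.49 to 0.35. Bmpr2, on chromosome 1, encodes the type II receptor that is mutated in heritable pulmonary arterial hypertension. It lay between 434 and 509 in Ndp KO and between 302 and 767 in WT. The 4 Ndp KO libraries fell inside the WT range, and the interval of the log2 difference ran from -0.78 to 0.45. The limma adjusted p was 0.995 for Bmpr1a, 0.992 for Bmpr1b and 0.987 for Bmpr2, and these intervals leave room for differences in either direction.

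The spread of the receptors in WT followed single libraries. WT replicate 2 held the highest Bmpr1a, at 6490.3, with the lowest Bmpr2, at 302, and WT replicate 4 held the lowest Bmpr1a, at 2529, with the highest Bmpr2, at 767. Over the 8 libraries the log2 levels of Bmpr1a and Bmpr2 had a Pearson correlation of -0.829 (exact permutation p = 0.0192, adjusted p = 0.216 over 45 pairs of genes) and a Spearman rho of -0.810 (exact permutation p = 0.0218). Without WT replicates 2 and 4 the correlation was -0.142, so the relation rests on those libraries. Between the same-date libraries, Bmpr1a differed by -0.99 and Bmpr2 by 0.70 on the log2 scale.

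Smad7 encodes an inhibitory Smad that binds active type I receptors and is itself induced by BMP and TGF-beta signals. Its normalized counts were 415, 209.9, 291 and 285 in Ndp KO replicates 1 to 4, against 539.5, 426, 678 and 249 in WT replicates 1 to 4. WT replicate 4 was lower than 3 of the Ndp KO libraries, and the other 3 WT libraries were higher than all of them. The means were 300.4 ± 85.1 in Ndp KO and 473 ± 182 in WT (SD, n = 4 each). On the log2 scale Smad7 differed by -0.60 ± 0.33 (95% interval -1.33 to 0.12), with a limma p of 0.0951 before and 0.917 after adjustment. The same-date libraries differed by -1.02, and without WT replicate 3 the difference was -0.40. Smad6, the other inhibitory Smad, averaged 1926 ± 445 in Ndp KO and 1929.6 ± 259 in WT.

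Id4 gave the only separation between genotypes among the 10 genes. Id4, on chr13:48261228-48266026, encodes an Id protein best known from the nervous system and the testis. It was at 11177, 10174, 11084 and 10181 normalized counts in Ndp KO replicates 1 to 4, against 14087, 12971, 11970.2 and 12619 in WT replicates 1 to 4. Every Ndp KO library was lower than every WT library. The means were 10654 ± 551 in Ndp KO and 12912 ± 886 in WT (SD, n = 4 each), 17.4% lower on the log2(normalized count + 1) scale. The log2 difference was -0.28 ± 0.11 (95% interval -0.52 to -0.03), and the limma p was 0.0310 before and 0.895 after adjustment. The same-date libraries differed by -0.35, and over the alternative settings the difference ran from -0.31 to -0.23. Of all genes tested, 1.58% had Ndp KO below WT with no overlap. Exons of Id4 overlap those of A330033J07Rik and Gm49291 on the opposite strand, and the library kit does not mark the strand, so reads in the shared stretches cannot be told apart. A330033J07Rik averaged 66.3 ± 16.6 in Ndp KO and 53.8 ± 18.6 in WT, and Gm49291 averaged 171 ± 18.4 in Ndp KO and 130.5 ± 24.3 in WT, both far below Id4.

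Id1, on chr2:152736251-152737410, encodes the founding member of the Id family and is widely used as a readout of BMP activity. It was at 3174, 4165, 2815 and 4129.97 in Ndp KO replicates 1 to 4, against 5619, 4514, 3802 and 7335 in WT replicates 1 to 4. WT replicate 3 was lower than 2 of the Ndp KO libraries, and the other 3 WT libraries were higher than all 4. The means were 3571 ± 682 in Ndp KO and 5318 ± 1539 in WT (SD, n = 4 each). On the log2 scale Id1 differed by -0.55 ± 0.22 (95% interval -1.03 to -0.07), with a limma p of 0.0273 before and 0.895 after adjustment. Between the same-date libraries it was -0.12.

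Id3, on chr4:136143497-136145755, encodes an Id protein that is often induced together with Id1, for example in blood vessels and blood cells. It was at 4196, 7234, 4215 and 6699 in Ndp KO replicates 1 to 4, against 8727, 8003, 6135 and 10598 in WT replicates 1 to 4. Again WT replicate 3 alone was inside the Ndp KO range. The means were 5586 ± 1609 in Ndp KO and 8366 ± 1846 in WT (SD, n = 4 each). The log2 difference was -0.60 ± 0.23 (95% interval -1.10 to -0.10), with a limma p of 0.0226 before and 0.895 after adjustment. Between the same-date libraries it was -0.15.

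Id2, on chr12:25093799-25097140, encodes an Id protein known for its part in lymphoid cells and the mammary gland. It was at 7217, 8727, 6975 and 8503 in Ndp KO replicates 1 to 4, against 11076, 8896, 6033 and 11531 in WT replicates 1 to 4. WT replicate 3 was the lowest of all 8 libraries, and the other 3 WT libraries were higher than every Ndp KO library. The log2 difference was -0.22 ± 0.20 (95% interval -0.66 to 0.22, limma adjusted p = 0.954), and between the same-date libraries it was -0.03. It was -0.42 without WT replicate 3, -0.12 without WT replicate 1 and -0.10 without WT replicate 4. WT replicate 3 was thus the lowest WT library for all 4 Id genes. Without it, Id1, Id2, Id3 and Id4 all had every Ndp KO library below every WT library, and 6.55% of all genes tested then had no overlap. WT replicate 3 was singled out here because it was lowest for these genes, so its removal could only favour their separation. The share over all genes was not selected in that way, so no conclusion is drawn from it.

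Id1, Id2 and Id3 varied together from library to library, within each genotype as well as across them. Of 45 pairs among the 10 genes, the pair of Id1 and Id3 alone passed adjustment, with a Pearson correlation of log2 levels of 0.956 (exact two-sided permutation p = 0.000174, adjusted p = 0.00781, n = 8). Spearman's rho for that pair was 0.976 (exact permutation p = 0.000397, adjusted p = 0.0179). The Pearson correlation was 0.937 without Ndp KO replicate 3 and WT replicate 4, the libraries farthest from the median of Id1, 0.963 within Ndp KO and 0.969 within WT. Id1 and Id2 had a Pearson correlation of 0.863 (exact permutation p = 0.00645, adjusted p = 0.145) and a rho of 0.929 (exact permutation p = 0.00223, adjusted p = 0.0502). Id2 and Id3 had a Pearson correlation of 0.812 (exact permutation p = 0.0165, adjusted p = 0.216) and a rho of 0.905 (exact permutation p = 0.00456, adjusted p = 0.0685). Neither pair passed adjustment.

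Id4 did not share that pattern inside Ndp KO. There the correlation of Id4 was -0.949 with Id1, -0.978 with Id2 and -0.993 with Id3, and within WT it was 0.378, 0.706 and 0.463 with the same genes. With counts scaled to the total reads of each library (CPM), it was -0.834, -0.885 and -0.953 within Ndp KO. On that scale it was -0.016, 0.332 and 0.011 within WT, so the WT values depend on the scaling. With 4 libraries in each genotype these values are a description, and no pooled value is given because the genotypes separate for Id4. The libraries with the higher Id1 in Ndp KO, replicates 2 and 4, were those with the lower Id4. Depth, the cells of the pool and the day of the sort are shared by all genes of a library.

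**Figure D4:**
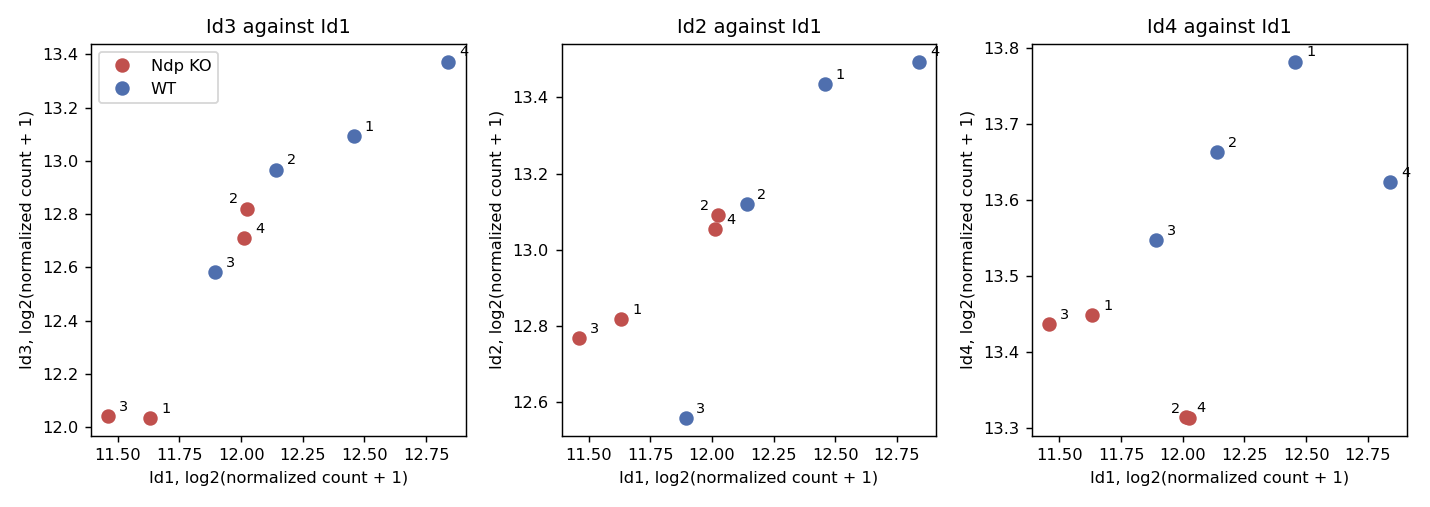
Log2(normalized count + 1) of Id3, Id2 and Id4 against Id1, with 1 numbered point per library, Ndp KO in red and WT in blue. Id3 and Id1 lie along 1 line over both genotypes (r = 0.956), while for Id4 the Ndp KO points form a group of their own below WT.

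Many other genes followed the Id genes as closely over 8 libraries. Among 18202 other genes tested, Id3 ranked 17 in likeness to Id1, and Id1 ranked 8 in likeness to Id3. The genes with the highest Pearson correlation of log2 levels with Id1 were Fkbp1a at 0.994, Rnaset2b at 0.985 and Rnaset2a at 0.983, and Rnaset2a and Rnaset2b are close copies whose reads may be split between them. For Id3 they were Fam3c at 0.995, Gm14567 at 0.975 and Mettl11b at 0.974. For Id2 they were Kazald1 at 0.977, Hmgn5 at 0.976 and Ino80e at 0.976. None is given for Id4, whose genotypes separate.

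The summed levels of cell type markers moved with some Id genes, a comparison chosen after the values were seen, with 20 relations between the 10 genes and 2 marker sums. The supporting cell sum in WT replicate 3, 208112, was the lowest of all libraries, the same library in which the Id genes were lowest in WT. That sum mostly follows its abundant genes: Tectb, at 106783, and S100a1, at 24216, were at their lowest there. Gjb6 (7476) and Otog (7693) were too. Hes5 (5014), Hey1 (3772) and Prox1 (3423) instead lay above every Ndp KO library there, though Hes5 and Hey1 were lowest in WT. Id2 correlated with the supporting cell sum at 0.868 (exact permutation p = 0.00412, adjusted p = 0.0419) and a rho of 0.905 (exact permutation p = 0.00456), and at 0.697 without WT replicates 3 and 4. Id3 correlated with the hair cell sum at -0.904 (exact permutation p = 0.00419, adjusted p = 0.0419) and a rho of -0.905 (exact permutation p = 0.00456), and at -0.573 without Ndp KO replicates 1 and 3. Id1 correlated with the hair cell sum at -0.770 (exact permutation p = 0.0262, adjusted p = 0.175), with a rho of -0.881 (exact permutation p = 0.00724, adjusted p = 0.0483), and at -0.449 without Ndp KO replicates 1 and 3. Within Ndp KO and within WT, Id2 was at 0.586 and 0.909 with the supporting cell sum. With the hair cell sum, Id3 was at -0.947 and -0.622, and Id1 at -0.906 and -0.410. The permutations did not keep genotypes apart, so the values over all libraries also carry any difference between genotypes. The other 17 relations had an unadjusted Pearson p above 0.05. By rank, the supporting cell sum also went with Id3 at a rho of 0.857 (exact permutation p = 0.0107, adjusted p = 0.0536) and with Id1 at 0.810 (exact permutation p = 0.0218, adjusted p = 0.0726), and the hair cell sum with Id2 at -0.810 (exact permutation p = 0.0218, adjusted p = 0.0726). Of the 12 supporting cell markers 3 were higher and 9 lower in Ndp KO, and of the 12 hair cell markers 8 were higher and 4 lower. In either list limma, edgeR and DESeq2 called 0. At an unadjusted limma p under 0.05, 3 supporting cell markers were lower and 3 hair cell markers higher. Over all genes tested, 2.47% were lower and 3.1% higher at that level. The part of these cells in the differences of the Id genes was not tested.

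Markers of cells outside the sort had lower sums, but in each list except the red blood cell list more were higher than lower in Ndp KO. The macrophage sum over 12 of 12 genes was 3905 to 6150.4 in Ndp KO and 2136 to 5172 in WT. The endothelial sum over 7 of 10 genes was 3063 to 4457 in Ndp KO and 2659 to 4331 in WT, and the mesenchyme and fibrocyte sum over 10 of 10 genes was 23587 to 36931 in Ndp KO and 21734 to 26169 in WT. The glia and neuron sum over 8 of 8 genes was 24017 to 29238 in Ndp KO and 21308 to 29498 in WT, and the red blood cell sum over 4 of 5 genes was 1.96 to 66.8 in Ndp KO and 2.33 to 84.0 in WT. The most abundant genes of these lists were C1qb and Lyz2, Egfl7 and Emcn, Lum and Pdgfra, Nefl and Nefm, and Alas2 and Hba-a2. Egfl7 averaged 3445 in Ndp KO and 3186 in WT, so the endothelial sum mostly follows that gene. C1qb, at 2353 in Ndp KO and 2043 in WT, made up a large part of the macrophage sum. Of the macrophage markers, 11 of 12 were higher in Ndp KO, with a median log2 difference of 1.65 and 4 at an unadjusted limma p under 0.05, all higher. Of the endothelial markers 6 of 7 were higher, with a median of 1.13 and 1 at that level, and of the mesenchyme and fibrocyte markers 8 of 10, with a median of 0.64 and 3 at that level. Of the glia and neuron markers 5 of 7 tested were higher, with a median of 0.30, and 1 was higher and 1 lower at that level. Only Alas2 of the red blood cell markers was tested, with a log2 difference of -0.31. The means of Hba-a1, Hba-a2 and Hbb-bs, too low to test, were lower in Ndp KO. limma and edgeR called 0 genes of these lists, and DESeq2 called 1, among the mesenchyme and fibrocyte markers. Over all genes tested DESeq2 called 0.136%, and at an unadjusted limma p under 0.05, 3.1% were higher and 2.47% lower. No marker of these lists was at 0 in all 8 libraries. Their part in the values of the 10 genes was not tested.

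The rest of the BMP pathway gave no called gene. Over 7 lists that hold the other ligands, antagonists, receptors, Smads, targets, E protein genes with Atoh1 and the TGF-beta and activin branch, limma, edgeR and DESeq2 each called 0 genes. Of 52 genes tested by limma, 2 had an unadjusted p under 0.05, Hey1 and Dlx5, and 5.57% of all genes tested did. DESeq2, which tested 58 genes of these lists, listed Acvrl1 as well at that level. Some genes, such as Hey1 and Smad6, also stand in a marker list or in more than 1 pathway list.

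**Figure D5:**
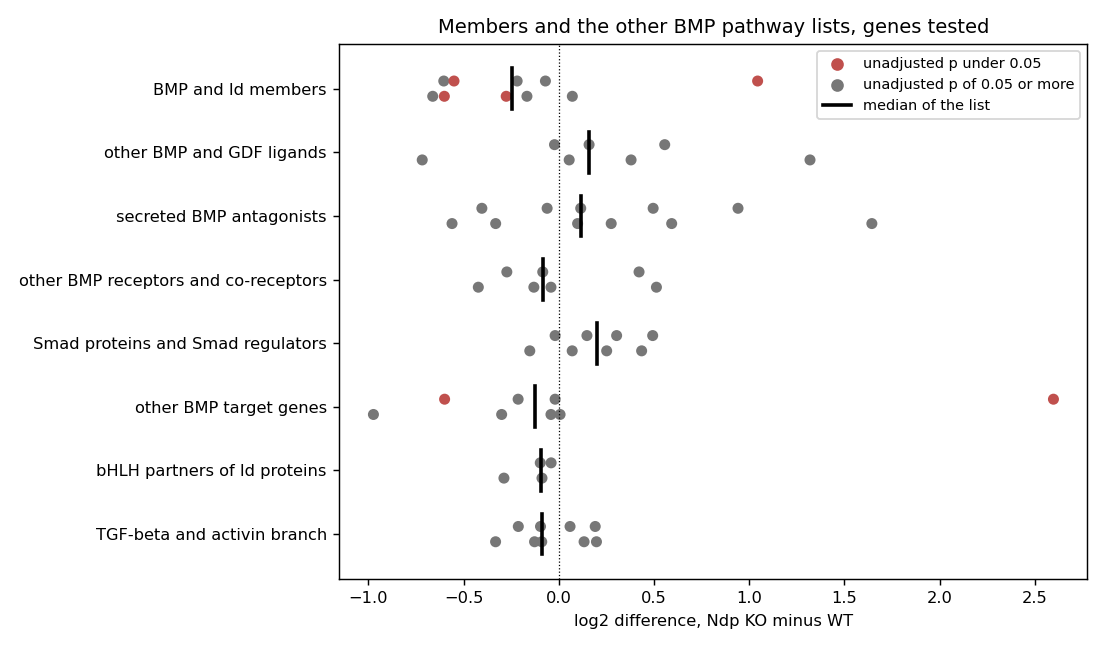
Log2 difference, Ndp KO minus WT, of every tested gene in the 10-gene group and in 7 other pathway lists, with 1 point per gene and a bar at the median of each list. Medians run from -0.25 for the 10 genes to 0.20 for the Smads, and red points have an unadjusted limma p under 0.05.

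Among 7 other ligands tested, 5 were higher and 2 lower in Ndp KO, with a median log2 difference of 0.16 and a lowest limma adjusted p of 0.917. Bmp3, which encodes a ligand that mostly opposes other BMPs, averaged 2410.5 ± 643 in Ndp KO and 1684 ± 611 in WT (log2 difference 0.56). Bmp6, a ligand that also sets iron balance in the liver, averaged 3360.3 ± 1020.1 in Ndp KO and 2683 ± 1086 in WT (0.38). Bmp5 was low, at 42.9 ± 11.6 in Ndp KO and 34.1 ± 27.4 in WT, and its log2 difference of 1.32 was -0.047 without WT replicate 4, where it was at 0. Of 11 secreted antagonists tested, 7 were higher and 4 lower, with a median of 0.12. Chrdl1, a chordin-like protein that binds BMP4, averaged 1325 ± 269 in Ndp KO and 987 ± 447 in WT (0.50). Nbl1 was at 661 ± 499.6 in Ndp KO and 366 ± 76.5 in WT, where Ndp KO replicate 4 was at 1387. Single libraries moved these differences: Bmp3 was at 0.29 without WT replicate 4, Bmp6 at 0.098 without WT replicate 3, 0.19 without Ndp KO replicate 3 and 0.60 without WT replicate 2, Chrdl1 at 0.77 without WT replicate 2, and Nbl1 at 0.14 without Ndp KO replicate 4 and 0.97 without Ndp KO replicate 3. Between the same-date libraries Bmp3 differed by -0.18, Bmp6 by -0.60 and Chrdl1 by -0.28, each with the other sign.

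Among 7 other receptors and co-receptors, 2 were higher and 5 lower in Ndp KO, with a median of -0.08. Acvr2a, a type II receptor for activins and BMPs, averaged 2306 ± 280.04 in Ndp KO and 1889 ± 949 in WT (log2 difference 0.42). Its paralog Acvr2b averaged 614 ± 95.8 in Ndp KO and 748 ± 147 in WT (-0.27), and the co-receptor Rgma 169.7 ± 64.4 in Ndp KO and 214 ± 23.2 in WT (-0.42). Of 8 Smads and Smad regulators, 6 were higher and 2 lower, with a median of 0.20. Smurf1, a ubiquitin ligase for BMP Smads, averaged 4287 ± 851 in Ndp KO and 3340.1 ± 1386 in WT (0.43). The co-repressors Ski and Skil averaged 1883 ± 84.8 and 1415 ± 80.1 in Ndp KO, against 1471 ± 664 and 1192 ± 352 in WT, where WT replicate 4 was the lowest library for both. Without it the log2 difference of Ski, 0.49 with all libraries, was 0.15, and that of Skil, 0.30 with all libraries, was 0.066. Rgma was at -0.12 without Ndp KO replicate 1, Acvr2b at -0.43 without WT replicate 2, and Acvr2a between 0.18 and 0.70 and Smurf1 between 0.25 and 0.66 as WT replicates were left out in turn. Between the same-date libraries Acvr2b differed by 0.45, Smurf1 by -0.47, Ski by -0.15 and Skil by -0.16, each with the other sign. The limma adjusted p of each gene named here was at least 0.927.

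Among 8 other target genes tested, 2 were higher and 6 lower in Ndp KO, with a median of -0.13. The genotypes did not overlap for 2 of them, while 3.04% of all genes tested had no overlap. Hey1, a bHLH repressor downstream of Notch and BMP that also marks supporting cells, was at 2648, 3654, 2726 and 3681 in Ndp KO replicates 1 to 4, against 4909.8, 6041, 3772 and 4581 in WT replicates 1 to 4. Every Ndp KO library was lower than every WT library, with a log2 difference of -0.60 ± 0.18 and a limma p of 0.00696 before and 0.895 after adjustment. Dlx5, a homeobox gene of the early ear, was at 18.98, 23.5, 38.8 and 79.2 in Ndp KO and at 7.39, 0, 12.5 and 9.301 in WT. It was higher in every Ndp KO library, but at few reads, and its limma p was 0.0151 before and 0.895 after adjustment. Msx1, a homeobox target of BMP4, averaged 39.8 ± 22.3 in Ndp KO and 73.4 ± 39.4 in WT (log2 difference -0.97, limma adjusted p = 0.927), and its difference was -0.43 without Ndp KO replicate 4.

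The list of bHLH partners of Id proteins held E protein genes and Atoh1, which Id proteins hold back through its E protein partners. All 4 tested genes of the list had a log2 difference below 0, from -0.29 to -0.04, with a median of -0.09. The lowest limma adjusted p was 0.949. Atoh1 averaged 2821 ± 496 in Ndp KO and 3581 ± 1334 in WT (-0.29). The reporter used for the sort carries its name, and the part of the sort in its level was not tested. Its difference was -0.077 without WT replicate 3, -0.15 without Ndp KO replicate 3 and -0.48 without WT replicate 2, and 0.46 between the same-date libraries. Tcf12, an E protein, averaged 1426 ± 147 in Ndp KO and 1514 ± 127 in WT (-0.09), and Tcf4 averaged 3447 ± 933 in Ndp KO and 3621 ± 477 in WT (-0.10), a difference that was 0.0056 without Ndp KO replicate 2. In the TGF-beta and activin branch, 4 of 9 tested genes were higher and 5 lower, with a median of -0.09. Smad2, which carries the TGF-beta signal, averaged 2095 ± 247 in Ndp KO and 1839.95 ± 269.6 in WT (0.19). The receptor gene Acvr1b was at 121 ± 15.4 in Ndp KO and 162 ± 68.5 in WT (-0.33), and Inhba, an activin subunit, at 1820.1 ± 239.7 in Ndp KO and 2178 ± 671 in WT (-0.21). Without WT replicate 4 the difference was 0.10 for Smad2, -0.093 for Acvr1b and -0.048 for Inhba. Between the same-date libraries Smad2 differed by -0.26 and Inhba by 0.55, each with the other sign.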

How the data were processed

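Tools named in the submitters' processing notes, with no roles, are Salmon 0.14.2, bcl2fastq 2.20 and DESeq2 1.26.0, with the build mm10. The authors deposited 1 table whose signal columns are normalized counts. Its values are gene counts over a factor for each library. Per the file headers, the authors' own DESeq2 log2 fold changes and p-values stand beside them. Dividing each column by its smallest step gave whole reads for 100% of 202744 values within 1e-06.

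Libraries were grouped by their genotype label and numbered in accession order, so a number pairs nothing. Libraries of 1 genotype differed by at least 29.7 in mean chi-square per gene, so none was counted as a copy. That value ran from 29.7 to 55.3 between Ndp KO libraries and from 73.4 to 245 between WT libraries. Between libraries of different genotype it ran from 48.6 to 176. The WT libraries thus differed more from each other than the Ndp KO libraries did, while the limma fit takes 1 variance per gene for both genotypes. limma 3.58.1 (R 4.3.3) with an intensity trend was fitted to log2(normalized count + 1) over 8 libraries, without covariates. Alternatives were pseudocounts of 0.1 and 5, no filter, a minimum of 5 CPM, other scalings, edgeR 4.0.16 and DESeq2 1.42.0 on recovered reads, leaving out each library, and leaving out the shared title date. The fits were tested on simulated data. Exon lengths came from GENCODE M21. All correlation tests were exact permutations (SciPy 1.17.1).

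The 10 genes and the lists were chosen with earlier results of these data known. Named genes are the 10 genes, Ndp, the 3 genes with the smallest p of each pathway list, the 3 most like each Id gene (not given for Id4), and the 2 most abundant genes of each marker list; Smad6 and the antisense genes of Id4 were added after their values were seen, and 1 gene that the rule names is not reported here. Smad7 positions and the markers Kdr, Cldn5, Erg and Hbb-bt were not analysed here.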

Additional observations from a re-analysis of the deposited data

Results flagged for a closer look

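Bmpr1b in WT replicate 4 was at 737 normalized counts, while the other 3 WT libraries lay between 1076 and 1140.3. Its gap to the nearest of them was 0.841 of the whole WT range, above Dixon's 95% critical value for 4 samples. Of 20 groups tested this way, the 10 genes in each genotype, 1 passed that value, and chance alone gives about 1 in 20. The 4 Ndp KO libraries, at 832 to 1102, had no library that stood apart in this way.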

How the results depend on the processing

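None of the 10 genes and none of the other pathway genes was called under any alternative. Over all genes limma called 1 gene. That count was 0 with a pseudocount of 0.1, 0 with a minimum of 5 CPM, 0 by edgeR, 34 by DESeq2, 0 without the shared title date, and 0 to 2 when 1 library was left out. The number of the 10 genes without overlap, 1 with all libraries, ran from 1 to 4 when 1 library was left out: Bmp2 joined Id4 without WT replicate 1, Bmpr2 without WT replicate 2, Smad7 without WT replicate 4, and Id1, Id2 and Id3 without WT replicate 3. The share of all genes tested without overlap was higher as well: 5.43% without WT replicate 1, 9.35% without replicate 2, 6.55% without replicate 3 and 5.82% without replicate 4, against 3.04% with all libraries. Without the shared title date it was 3 (Bmpr1a, Bmpr2 and Id4), where 14.8% of all genes tested had no overlap. With 1 library left out, Bmp4 ran from -1.33 to 0.58 (reversed without Ndp KO replicate 3), Bmpr1a from -0.14 to 0.32, Bmpr2 from -0.44 to 0.0039 and Bmp5 from -0.047 to 1.98 (these 3 reversed without WT replicate 4), and Tcf4 from -0.27 to 0.0056 (reversed without Ndp KO replicate 2). Bmpr1a was -0.0079 by edgeR and -0.0016 by DESeq2. The cause of these changes was not tested. Bmp2 (0.75 to 1.33), Id1 (-0.70 to -0.38), Id2 (-0.42 to -0.10), Id3 (-0.75 to -0.48), Id4 (-0.31 to -0.23), Smad7 (-0.88 to -0.40) and Bmpr1b kept their sign in 17 of 17 alternatives; an unadjusted p under 0.05 was met in 16 for Bmp2 and in 13 each for Id1, Id3 and Id4. The count of correlated pairs stayed at 1 on the CPM scale. No paired analysis was possible because replicate numbers follow accession order and only 1 title date occurs in both genotypes. Bmp4, Bmp5 and Dlx5 were at 0 in 1 library each, and the part of depth in this was not tested.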
